A study of Mus musculus with 8 samples.

Results

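The mitochondrial ribosomal protein genes were described over 8 RNA-seq libraries of mouse primary hepatocytes. They were taken as every protein-coding gene whose symbol in the mouse GRCm38 annotation starts with Mrpl or Mrps followed by a digit, with pseudogene names left out. This rule, which uses no measured value, gave 78 genes (49 Mrpl and 29 Mrps) of the 55450 genes in the files, 21951 of which are protein-coding. The hepatocytes came from C57BL/6 mice at post-natal week 8 and were cultured without serum in medium with dexamethasone. LSKO cells, genotype Alb-cre(+/+);Slc39a8(F/F), carry Cre recombinase under the albumin promoter, which is active in hepatocytes, to delete there Slc39a8, the gene of the metal transporter ZIP8. LSKO cells were given 2 µM manganese chloride, ferrous chloride, sodium selenite or zinc chloride for 24 h (1 library each) or no metal (2 libraries), and WT cells, Slc39a8(F/F) by their label, were left untreated (2 libraries). All metal-treated cells were therefore LSKO cells, and a metal and its single library cannot be told apart. The labels do not say whether the paired libraries came from separate mice, so p-values measure the spread between those libraries only.

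The libraries held 19943899 to 27731054 reads in genes. The targeted gene, Slc39a8, had 75, 47, 30 and 45 reads with manganese, iron, selenite and zinc, 185 and 51 reads in untreated LSKO replicates 1 and 2, and 367 and 356 reads in the WT libraries. In normalized CPM (read counts scaled to a common library size) untreated LSKO replicate 1 had 8.14 and replicate 2 had 1.87, against 12.7 and 15.5 in WT, so the library labelled LSKO replicate 1 kept a level nearer to WT than to the 1.48 to 3.17 CPM of the other 5 LSKO libraries. Counts of called members without it are given for each comparison that uses untreated LSKO. Other results, such as sum ratios, subunit splits and other gene lists, use both untreated LSKO libraries. Markers of hepatocytes, such as Alb and Apoa1, summed to 19514 to 48753 CPM with the selenite library highest, and those of macrophages to 188 to 468 CPM with the manganese library highest. Cd68 alone made up 369 CPM of the manganese sum. Marco, Vsig4, Cd5l and Timd4 were also highest with manganese. Adgre1 was highest with selenite and Clec4f in untreated LSKO replicate 2, while Csf1r was lowest with manganese. Endothelial markers summed to 76.5 to 183 CPM, and 5 lymphocyte markers to at most 0.247 CPM, with Nkg7 at 0 throughout. In such bulk samples, fewer cells of a type and less RNA per cell cannot be told apart. The manganese library stood apart: 72.2% of its reads fell in genes and 4.48% in no annotated feature, against 39.3% and 39.4% in genes and 42.3% and 42.8% in no feature in untreated LSKO. The untreated LSKO and manganese libraries also had 0 to 62 reads set aside for low alignment quality and 8.79% to 10.0% unaligned reads, whereas the iron, selenite, zinc and WT libraries had 592678 to 680199 and 4.12% to 4.94%. The comparisons of iron, selenite and zinc with untreated LSKO cross this divide, and so does untreated LSKO against WT. For this reason 2 comparisons that do not cross it were added, selenite against iron and zinc, and the 3 together against WT. Iron and zinc were not compared on their own within these libraries.

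Mitochondria carry their own ribosome, which makes only the few respiratory chain and ATP synthase subunits encoded by mitochondrial DNA. Its ribosomal RNAs are transcribed inside the organelle, but all of its proteins are encoded by nuclear genes, made in the cytosol and imported. Many of these proteins have bacterial counterparts, others exist only in mitochondria, and Mrpl and Mrps symbols name proteins assigned to the large and the small subunit. Hepatocytes are rich in mitochondria. Some symbols no longer match the assembled particle: the proteins of Mrps30 and Mrps18a sit in the large subunit, and that of Mrps36 is best known as a component of the 2-oxoglutarate dehydrogenase complex.

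Nearly all of these genes were expressed at moderate levels. A gene was tested if it had at least 80 reads summed over the 8 libraries, and 77 of the 78 members did, with 212 to 3891 reads per member and library. Mrpl53 (chr6:83109040-83109939, plus strand), a large subunit gene, had 0 reads in all 8 libraries. Of its 790 exon bases, 695 are also exon of Gm42688, a gene annotated on the same strand, and whether this overlap accounts for the 0 reads was not tested. The 78 genes lie on 17 chromosomes, most often chromosome 11 (11 genes) and chromosome 17 (8 genes). Annotated pseudogenes of Mrpl23, Mrpl48 and Mrps36 had at most 64 reads in any library.

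Levels were compared between genes as CPM, scaled by trimmed-mean (TMM) factors and divided by the length of all annotated exons in kb. On this scale the member means over 8 libraries ran from 2.86 to 65.9 CPM per kb, with a median of 26.9 for Mrpl and 14.1 for Mrps genes. Mrps21, the counterpart of bacterial S21, was highest at 65.9 CPM per kb (range over libraries 51.2 to 91.4). Mrpl12, a protein of the flexible stalk that also binds the mitochondrial RNA polymerase, followed at 64.3 (38 to 86), and then Mrpl34 at 62.3 (47.6 to 75.3), Mrpl52 at 57.5 (33.6 to 88.4) and Mrpl24 at 57.1 (44.2 to 74.6). The ranges of these 5 neighbours overlap, so their order is not resolved. At the other end were Mrps35 at 2.86 (2.25 to 4.48), Mrpl33 at 5.83 (3.91 to 8.70), Mrps10 at 6.00 (4.52 to 7.75), Mrpl4 at 6.67 (5.83 to 7.06) and Mrps9 at 6.71 CPM per kb (5.81 to 8.16). The order depends on the length used. With the median length of protein-coding transcripts, the median was 43.0 CPM per kb, 2 of the 5 highest and 1 of the 5 lowest genes were the same, and the rank correlation of the 2 orders was 0.57 over 77 genes.

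**Figure D1:**
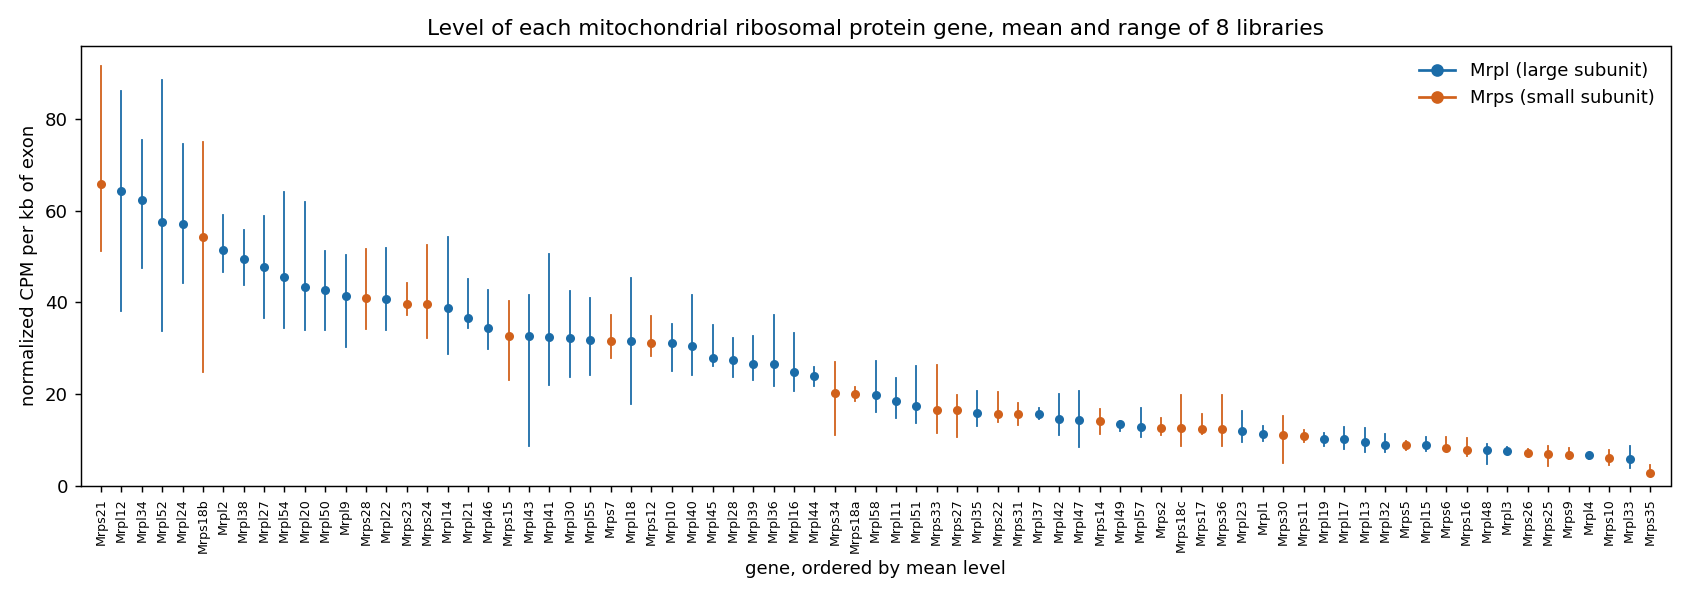
Level of each of 77 mitochondrial ribosomal protein genes in normalized CPM per kb of annotated exon. Points are means and lines the range of 8 libraries, with Mrpl genes in blue and Mrps genes in orange, from Mrps21 at 65.9 down to Mrps35 at 2.86 CPM per kb.

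The promoters of these genes were examined for letters bound by factors known to act on mitochondrial genes. RefSeq windows on GRCm38.p6, from 250 bases before to 50 after the start site, were at hand for 69 of the 78 members (75 windows). The ETS motif CCGGAAG, the letters of GABPA (nuclear respiratory factor NRF2), was found on either strand in 34.7% of member windows, against 8.86% of all 32817 windows. The YY1 motif ATGGCGG was in 17.3% of member windows and 4.05% of all windows, and the NRF1 motif GCATGCG in 10.7% and 3.57%. The TATA box letters TATAAA were rarer in member windows, 6.67% against 13.6% of all windows. GCATGCG overlaps its own reverse complement, so that a single site can match on both strands, and no motif contains another. Of 31 ETS matches, 26 lay between 60 bases before and 50 after the start site.

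The 4 windows printed here were chosen to show the gene with the largest rise with selenite (Mrps33), the only window with 3 of the 4 motifs (Mrpl22), the gene with the smallest selenite change among members with a window (Mrpl44) and the highly expressed Mrpl12. Capitals mark motif matches, and each sequence runs 5′ to 3′ on the strand of its gene.
Mrps33 (chr6:39810887-39811186, minus strand): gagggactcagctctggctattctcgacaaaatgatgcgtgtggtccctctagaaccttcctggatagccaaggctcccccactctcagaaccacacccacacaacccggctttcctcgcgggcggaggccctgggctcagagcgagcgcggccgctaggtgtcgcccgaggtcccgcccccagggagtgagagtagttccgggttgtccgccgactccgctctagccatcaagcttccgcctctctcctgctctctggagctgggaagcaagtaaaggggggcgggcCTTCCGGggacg
Mrpl22 (chr11:58171414-58171713, plus strand): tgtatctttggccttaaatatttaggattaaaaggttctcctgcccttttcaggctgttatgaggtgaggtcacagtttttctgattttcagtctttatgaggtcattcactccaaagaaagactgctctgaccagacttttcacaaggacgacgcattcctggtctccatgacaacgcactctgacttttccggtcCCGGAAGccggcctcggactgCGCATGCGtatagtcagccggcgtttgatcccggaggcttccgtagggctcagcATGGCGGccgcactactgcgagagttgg
Mrpl44 (chr1:79775768-79776067, plus strand): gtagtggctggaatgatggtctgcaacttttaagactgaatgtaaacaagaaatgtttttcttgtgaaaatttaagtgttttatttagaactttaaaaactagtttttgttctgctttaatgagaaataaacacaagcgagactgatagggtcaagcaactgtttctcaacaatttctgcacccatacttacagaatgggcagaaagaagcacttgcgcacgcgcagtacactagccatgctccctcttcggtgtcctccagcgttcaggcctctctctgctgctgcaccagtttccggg
Mrpl12 (chr11:120484387-120484686, plus strand): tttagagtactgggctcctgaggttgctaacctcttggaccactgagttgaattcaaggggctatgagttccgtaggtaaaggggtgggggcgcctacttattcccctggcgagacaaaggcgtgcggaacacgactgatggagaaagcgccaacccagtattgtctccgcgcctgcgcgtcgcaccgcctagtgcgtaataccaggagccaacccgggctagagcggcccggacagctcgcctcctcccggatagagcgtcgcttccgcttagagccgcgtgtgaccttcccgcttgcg
The ETS letters of Mrps33 begin 39 bases after the start site, on the opposite strand. In Mrpl22 an ETS match begins 53 bases before the start site, an NRF1 match 32 bases before it and a YY1 match 23 bases after it. The Mrpl44 and Mrpl12 windows hold none of the 4 motifs. Of the 69 members with a window, 28 had no motif, 31 had 1, 9 had 2 and 1 had 3. As a description, the median selenite change (log2, against untreated LSKO) was 0.39 in members with the ETS letters and 0.37 in those without, 0.43 and 0.36 for NRF1, and 0.13 and 0.39 for YY1.

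Across the 8 libraries the selenite library held the most RNA of this family. The members summed to 5249 normalized CPM with selenite, 4521 with zinc, 3955 with manganese and 3944 with iron, against 4019 and 4238 in untreated LSKO and 3993 and 3807 in WT. The 50 tested members with no exon overlap on the other strand summed to 2772 CPM with manganese, against 2466 and 2605 in untreated LSKO, and the 27 with such an overlap to 1183, against 1553 and 1633. The low manganese total thus came from the overlapped members. The selenite sum was 1.27 times the mean of untreated LSKO, and the zinc sum 1.10 times. Selenite was the highest of the 8 libraries for 61 of 77 members (79.2%), where it was highest for 25.0% of all genes tested, and it was lowest for none. The iron library was lowest for 27 members, the manganese library for 18 and WT replicate 2 for 14. The Mrpl and Mrps sums with selenite were 1.27 and 1.28 times those of untreated LSKO, and with zinc 1.09 and 1.10 times. With iron the Mrpl sum was 0.931 and the Mrps sum 1.01 times that of untreated LSKO, and the Mrpl to Mrps ratio was 2.04, against 2.21 ± 0.039 in untreated LSKO (SD, n = 2) and 2.08 ± 0.020 in WT.

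**Figure D2:**
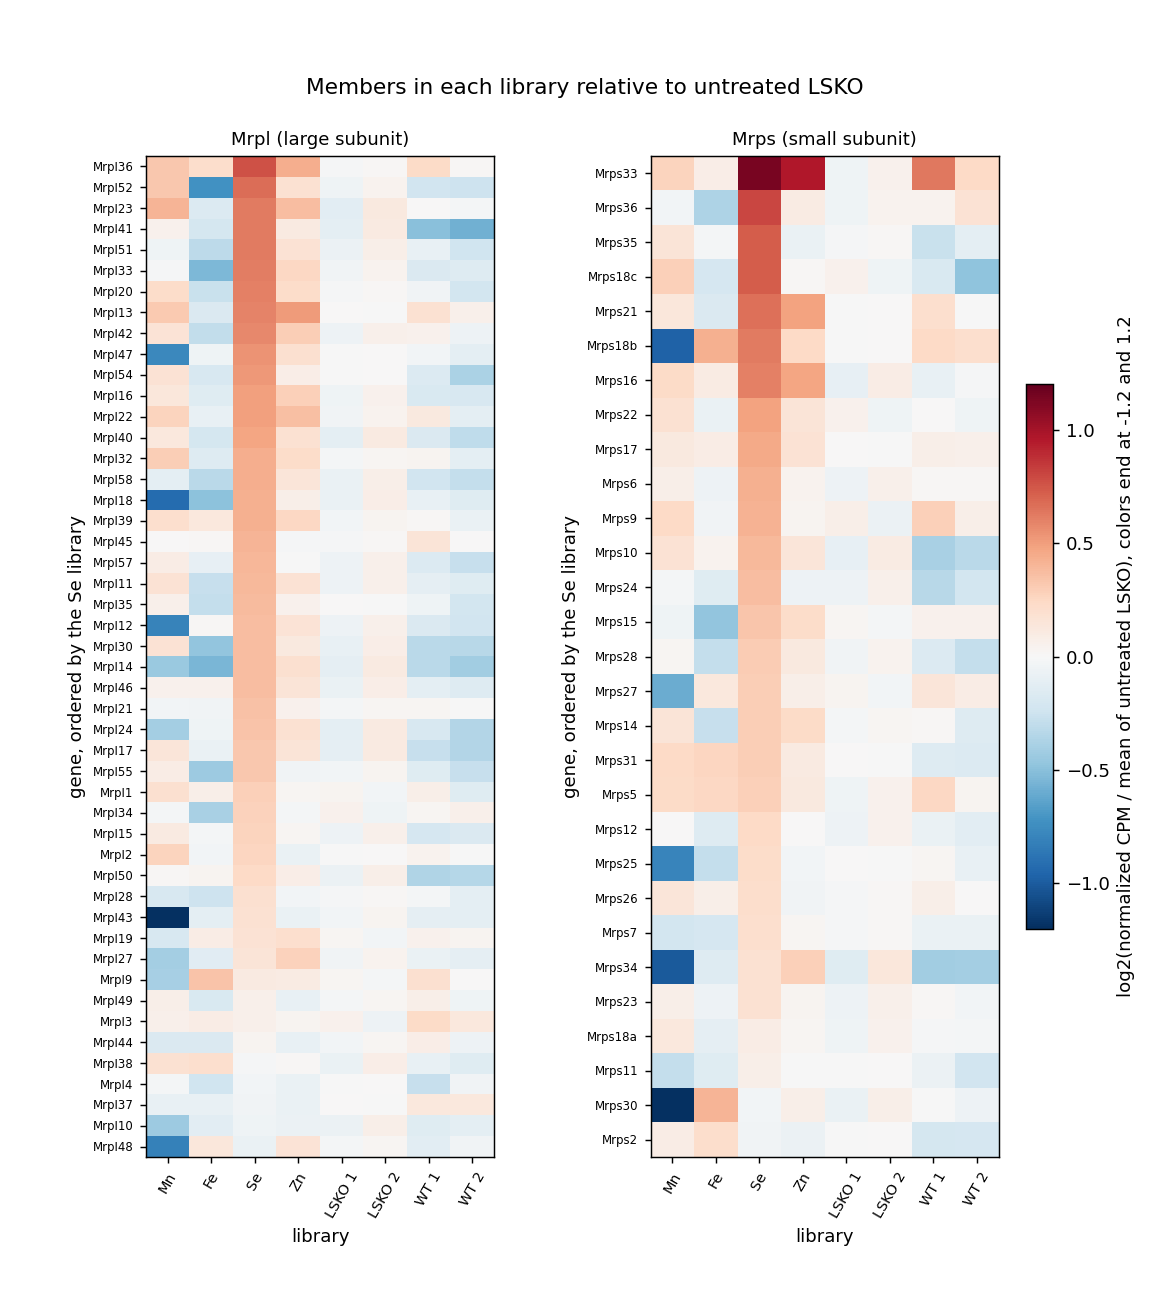
Each of 77 members in each library as log2 of its normalized CPM over the mean of the 2 untreated LSKO libraries, Mrpl left and Mrps right, with rows ordered by the selenite library. The selenite column is above 0 in most rows (highest library for 61 members), and the manganese column holds a few deep blue cells, of which Mrpl43 and Mrps30 are the lowest.

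Each difference was tested with edgeR's quasi-likelihood test over all 15468 genes tested, and a gene was called at a Benjamini-Hochberg adjusted p under 0.05 with a log2 fold change beyond 0.5. The 4 metals share the same untreated LSKO libraries, so their comparisons are given side by side.

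A group of both subunits' genes was higher in the selenite library than in untreated LSKO. Of the 77 members tested, 18 were called higher (23.4%) and 0 lower, where 7.89% of all genes tested were called higher and 9.67% lower. The median log2 fold change was 0.36, against -0.01 over all genes, and 70 of 77 members had a positive one (49.0% of all genes). The selenite library was above both untreated LSKO libraries for the same number, 70 members (90.9%, against 42.6% of all genes). Before the fold threshold, 42 members passed the adjusted p, all higher, where 13.8% of all genes tested passed it in that direction. With DESeq2, 15 of the 18 remained called, and Mrps16, Mrps18c and Mrpl54 did not. The hepatocyte marker sum moved the same way, at 48753 CPM with selenite, against 28200 and 35864 in untreated LSKO. Alb alone made up 43256 CPM of the selenite sum. Alb, Ttr, Apoa1 and Serpina1c were above both untreated LSKO libraries, while Hnf4a, Tat, Cps1 and Ass1 lay between them. The part of these markers in the result was not tested.

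The size of these changes rests on the scaling of the libraries. The TMM factor of the selenite library, 0.867, was the lowest of the 8, and with library totals in place of TMM factors the median of all genes moved to -0.26 and that of the members to 0.12. The difference between the 2 medians was 0.38 on either scaling. On library totals, 3 members were called higher, 0 lower and 53 of 77 were positive, while 3.91% of all genes were called higher and 20.9% lower. As a plain share of reads in genes, the members made up 0.455% with selenite, against 0.417% and 0.430% in untreated LSKO.

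Mrps33, a small subunit protein with no bacterial counterpart, showed the largest change. It had 43.8 normalized CPM with selenite, 38.7 with zinc, 23.9 with manganese and 21 with iron, against 19.2 and 20.6 in untreated LSKO and 30.8 and 23.4 in WT. The selenite and zinc libraries were above the other 6, and both untreated LSKO libraries were below both WT libraries. By edgeR's quasi-likelihood test its log2 fold change with selenite was 1.14 ± 0.16 (SE; 95% interval 0.79 to 1.48; adjusted p = 0.000814), a 2.20-fold rise. It was 0.62 ± 0.16 relative to iron and zinc (adjusted p = 0.0167), since zinc was also high.

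Mrps36, the dehydrogenase component, had 25.2 CPM with selenite and 15.4, 14 and 11.2 with zinc, manganese and iron, against 13.9 and 14.9 in untreated LSKO and 14.8 and 16.2 in WT. Selenite alone stood above the rest, and the log2 fold change was 0.80 ± 0.14 (edgeR quasi-likelihood adjusted p = 0.00308). Mrpl36, the counterpart of bacterial L36, had 43.1 CPM with selenite, 34.5 with zinc, 31.9 with manganese and 29.4 with iron, against 25.3 and 25.6 in untreated LSKO and 30.0 and 25.8 in WT. Its log2 fold change was 0.76 ± 0.13 (edgeR adjusted p = 0.00214), and the untreated LSKO libraries were the lowest of the 8.

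Mrps35, another small subunit protein without a bacterial counterpart, had 38.6 CPM with selenite, against 23.2 and 23.6 in untreated LSKO, and 19.4 to 26 in the other 5 libraries. Its change of 0.72 ± 0.12 (edgeR adjusted p = 0.00251) was matched by 0.78 relative to iron and zinc. Among the large subunit genes, Mrpl52 had 98.1 CPM with selenite, 77 with manganese, 70.2 with zinc and 37.3 with iron, against 59.7 and 63.7 in untreated LSKO and 52.6 and 51.8 in WT. Selenite was its highest and iron its lowest library, and the selenite change was 0.67 ± 0.09 (edgeR adjusted p = 0.00099).

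Mrpl41 had 44.9 CPM with selenite, against 26.8 and 31.5 in untreated LSKO (log2 fold change 0.62). Further genes called higher with selenite included Mrps21 (67.6 CPM, against 42.5 and 42.9 in untreated LSKO, log2 fold change 0.66) and Mrpl23, a protein at the exit of the peptide tunnel (79.4, against 47.1 and 55.9, 0.62). Mrpl51 had 106 CPM, against 65.5 and 72 in untreated LSKO (0.62), and Mrpl33, the counterpart of bacterial L33, 63.8, against 40.5 and 43 (0.61). In each of these 5 the selenite library was the highest of all 8. Mrps16, Mrpl20, Mrpl13, Mrpl42, Mrpl47 and Mrpl54 were called with changes between 0.52 and 0.60. Leaving out untreated LSKO replicate 1 left 12 of the 18 calls, and leaving out replicate 2 left 17 and added 2.

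**Figure D3:**
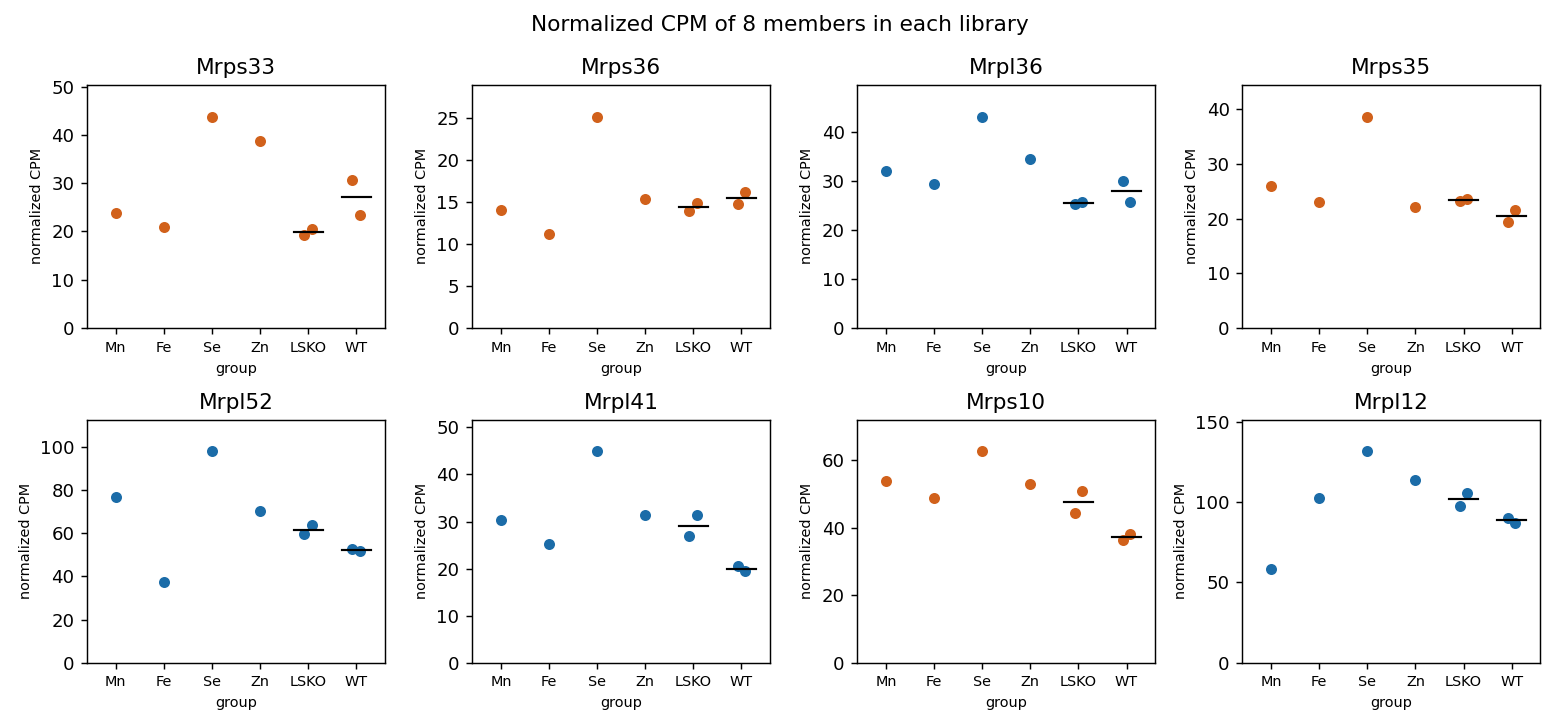
Normalized CPM of 8 members in each library. Short black lines are means of the untreated pairs. Mrps33 is high with selenite and zinc (43.8 and 38.7 CPM), Mrps36, Mrps35 and Mrpl52 with selenite, Mrpl41 and Mrps10 are lowest in WT, and Mrpl12 is lowest with manganese.

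The 3 paralogues of bacterial S18 are given side by side. Mrps18c had 21.3 CPM with selenite, 15.7, 13 and 11.2 with manganese, zinc and iron, against 13.4 and 12.4 in untreated LSKO and 11.4 and 9.24 in WT. Mrps18b had 157 CPM with selenite, 137 with iron, 120.3 with zinc and 51.9 with manganese, against 101 and 103 in untreated LSKO and 120.1 and 118 in WT. Mrps18a, whose protein belongs to the large subunit, had 77.8 CPM with selenite, 79.8, 74.5 and 67.9 with manganese, zinc and iron, against 70.6 and 75.9 in untreated LSKO and 72.6 and 72 in WT. The selenite library was the highest for Mrps18c and Mrps18b, but lay within the range of the others for Mrps18a. By edgeR's quasi-likelihood test the selenite changes were 0.72 ± 0.17 (adjusted p = 0.0105) for Mrps18c and 0.62 ± 0.09 (adjusted p = 0.000917) for Mrps18b. For Mrps18a the change was 0.09 with a 95% interval of -0.13 to 0.30. The differences between paralogues were not tested. DESeq2 gave Mrps18c an adjusted p of 0.0784 against untreated LSKO, so that call rests on the tool. Relative to iron and zinc, DESeq2 gave Mrps18b 0.27 (adjusted p = 0.144), which was not called, and Mrps18c 0.80 (adjusted p = 0.0294).

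Of 14 members singled out for a role known from the literature, 3 were called higher with selenite (Mrpl41, Mrps16 and Mrps36). A further 4 passed the adjusted p but not the fold threshold, and 7 did not pass. Over all genes tested 7.89% were called higher, and 13.8% were higher at the adjusted p with no fold threshold. The median of the 14 members was 0.33. Among those that did not pass, Mrpl3, a counterpart of bacterial L3 in which human mutations cause cardiomyopathy, had 50.2 CPM, against 50.2 and 46.4 in untreated LSKO (log2 fold change 0.06, 95% interval -0.18 to 0.30). Mrpl44, which carries a ribonuclease III-like fold, had 41.4, against 39.7 and 41.3 (0.03, -0.22 to 0.28), and Mrps30 74.7, against 72.3 and 80.5 (-0.03, -0.26 to 0.19). The selenite value of these 3 genes lay within the untreated LSKO pair or just beyond its upper value. The decoding-region protein Mrps12 had 38.5 CPM, against 31.4 and 34 (0.23), Mrps7 77.1, against 66.7 and 67.8 (0.20), and Mrps5, whose lowering extends life in Caenorhabditis elegans, 63.8, against 50.5 and 54.1 (0.29). Mrps34, a small subunit protein, was the seventh, at 0.18. Mrpl58, a peptidyl-tRNA hydrolase built into the large subunit, had 90.4, against 63.5 and 70.4 (0.43, edgeR adjusted p = 0.0112). Mrpl11 at the stalk base (0.39), Mrpl12 (0.37) and Mrps22 (0.49) likewise passed the adjusted p but not the fold threshold.

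Large and small subunit genes had similar counts and medians with selenite. Of the Mrpl genes 11 of 48 (22.9%) were called higher, and of the Mrps genes 7 of 29 (24.1%). The medians were 0.37 and 0.31, a difference of 0.06 where the 2 untreated LSKO libraries differed by 0.03 on the same measure (SD). With Mrps30 and Mrps18a counted in the large subunit and Mrps36 left out, the difference was 0.05.

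Among libraries of like read summaries, selenite was again above iron and zinc. Of 77 members 18 were called higher and 0 lower (background 7.53% higher and 8.35% lower), with a median of 0.33, against 0.02 over all genes, and 71 members positive. Both comparisons use the same selenite library. The hepatocyte marker sum, mostly Alb, was again higher, at 48753 CPM with selenite, against 30419 with iron and 35504 with zinc. Alb, Ttr, Apoa1, Serpina1c, Hnf4a and Cps1 were above both, and Ass1 lay between them. Tat was lower, at 72.5 CPM with selenite, against 144 with iron and 82.8 with zinc. The part of these markers was not tested. Mrps36 (0.94 ± 0.14, adjusted p = 0.00223 by edgeR's quasi-likelihood test) and Mrpl52 (0.94 ± 0.10, adjusted p = 0.000651) led, and the iron value of both was the lowest of the 8 libraries. Mrps18c (0.82), Mrps35 (0.78), Mrpl33 (0.76), Mrpl51 (0.69), Mrpl41 (0.67) and Mrpl18 (0.64) followed. Mrpl18, the 5S rRNA-binding counterpart of bacterial L18, had 63.4 CPM with selenite, 49.3 with zinc and 33.6 with iron, and was not called against untreated LSKO (44.4 and 49.7 CPM). Of the Mrpl genes 13 of 48 were called and of the Mrps genes 5 of 29, with medians of 0.38 and 0.31. Library totals in place of TMM factors left 6 calls, where 3.58% of all genes were called higher and 16.1% lower. On that scaling the median was 0.15 for the members and -0.17 for all genes.

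**Figure D4:**
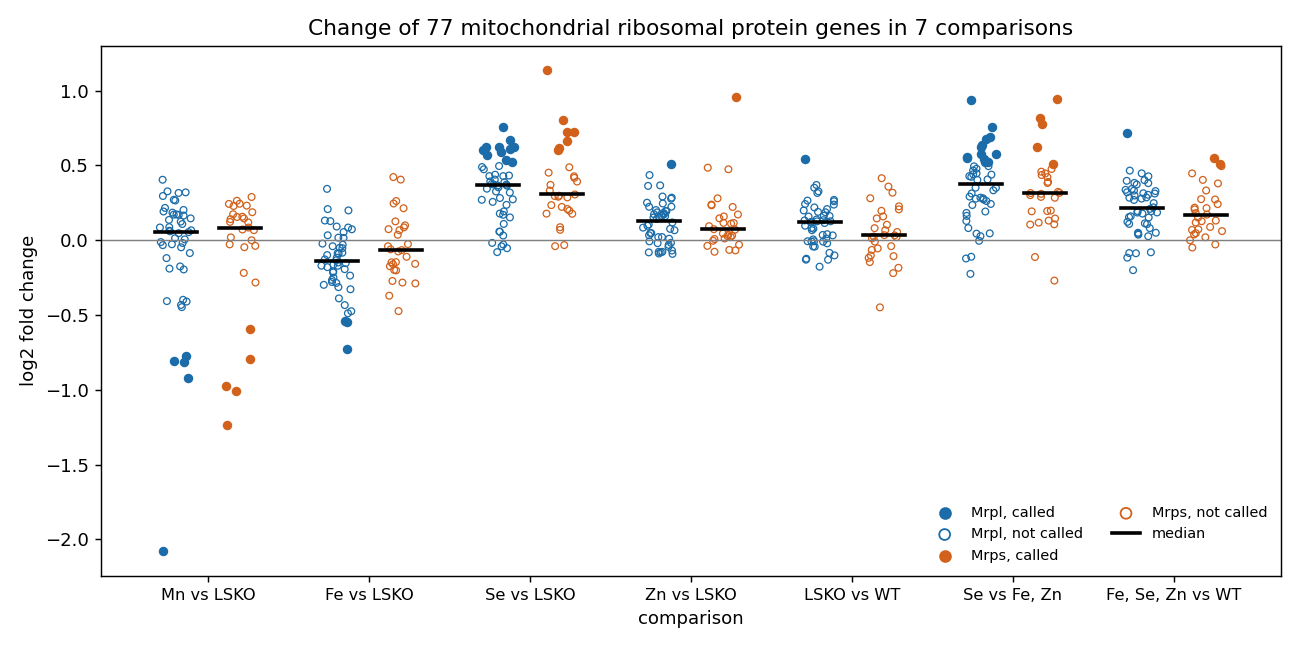
Log2 fold change of 77 members in 7 comparisons, Mrpl in blue and Mrps in orange, filled where called, with black bars at the medians. Selenite against untreated LSKO (medians 0.37 and 0.31) and against iron and zinc (0.38 and 0.31) lie above 0, iron lies below, and called genes in the manganese comparison are all lower.

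The selenite changes went with the length of coding transcripts. Members are short, with a median coding transcript of 1056 bases, against 2137 bases over genes tested. Of the 26 members with the shortest transcripts (405 to 815 bases) 13 were called higher with selenite. The count was 1 of 25 in the middle (846 to 1418 bases) and 4 of the 26 longest (1424 to 6073 bases). Over all genes tested, of any length, 7.89% were called higher. The medians of these groups of members were 0.50, 0.35 and 0.28. Against iron and zinc the calls were 14, 1 and 3, where 7.53% of all genes were called higher. Across the 77 members the selenite change and log2 coding length had r = -0.30 and rho = -0.34. With the longest transcript of each gene the values were weaker, r = -0.19 and rho = -0.15. Both are descriptions over genes that share the same libraries. A length and GC correction removed a trend of each library on the length and GC content of each gene's longest transcript. This is not the coding length above: for Mrpl23 it is 3715 bases, against 692. After this correction 3 members were still called with selenite, namely Mrpl23 (0.88), Mrps35 (0.70) and Mrpl13 (0.61), and the median was 0.14. The share of all genes called after the correction is not given here, so counts after it stand without a background. Mrps33 then had 0.49 with an adjusted p of 0.0286 by edgeR, so that only the fold threshold was missed, while Mrps36 had 0.14 and Mrps18c 0.00. Against iron and zinc the correction left 6 calls and a median of 0.18. Whether this relation arose in the cells or in the libraries was not tested.

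**Figure D5:**
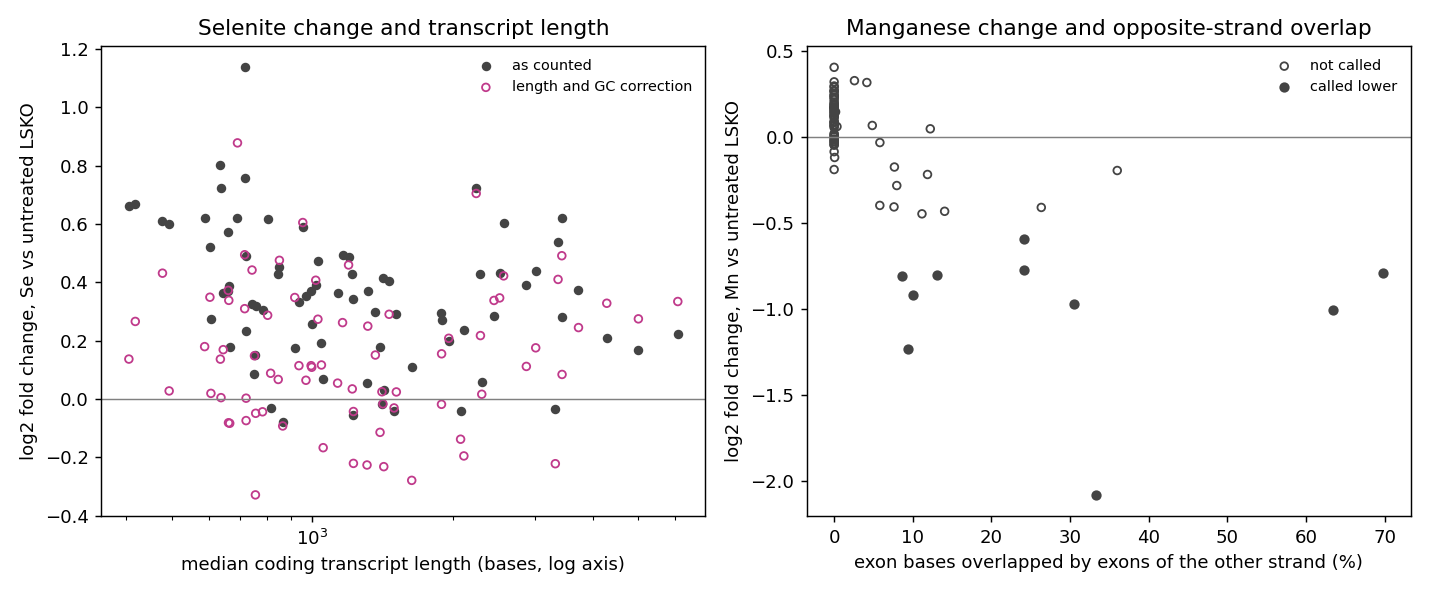
Left, selenite log2 fold change of each member against the median length of its coding transcripts (log axis), as counted (filled) and after the length and GC correction (open). That correction used the longest transcript of each gene. Right, manganese log2 fold change against the share of a member's exon bases that exons of the other strand overlap, where all 10 called genes have some overlap.

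With zinc, 2 members (2.60%) were called higher relative to untreated LSKO and 0 lower, a share close to that of all genes (2.90% higher and 1.55% lower). The median was 0.11, and without untreated LSKO replicate 1 the count was again 2. They were Mrps33 (0.96 ± 0.16, adjusted p = 0.00417 by edgeR's quasi-likelihood test) and Mrpl13, the counterpart of bacterial L13 (0.51 ± 0.09, adjusted p = 0.0106). Mrpl13 had 93.5 CPM with zinc, 99.2 with selenite, 81.9 with manganese and 58.5 with iron, against 66 and 65.6 in untreated LSKO and 74.6 and 68.7 in WT. The zinc value of Mrpl13 was above every library but selenite. Leaving out untreated LSKO replicate 2 gave 5 calls, and library totals or the length and GC correction gave 1.

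With iron, 3 members (3.90%) were called lower relative to untreated LSKO and 0 higher, a share below that of all genes (4.89% lower and 3.80% higher). The median was -0.12. The 3 are named here as single genes. Mrpl52 fell most, to the 37.3 CPM given above (-0.73 ± 0.10, adjusted p = 0.00163 by edgeR's quasi-likelihood test). Mrpl33 had 28.7 CPM with iron, against 40.5 and 43 in untreated LSKO and 37.1 and 37.5 in WT (-0.54, edgeR adjusted p = 0.0119). Mrpl14, at the face where the subunits join, had 27.2 CPM with iron, against 36.9 and 42.8 in untreated LSKO and 31.8 and 29.9 in WT (-0.55, edgeR adjusted p = 0.0219). Iron was the lowest library for all 3. The Mrpl14 call was lost with DESeq2 and without either WT library or untreated LSKO replicate 2, and without untreated LSKO replicate 1 the count was 5. All 3 lie among the shortest transcripts, where the iron median was -0.21, against -0.08 and 0.00 in the middle and longest. Mrps30 had 101 CPM with iron (0.40, edgeR adjusted p = 0.026), under the fold threshold.

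With manganese, 10 members (13%) were called lower and 0 higher, a share below that of all genes (15.1% lower and 2.09% higher), and the median was 0.07. Without untreated LSKO replicate 1 the count was 13. The lowest was Mrpl43 (chr19:45004829-45006442, minus strand), with 13.2 CPM with manganese, 51.5, 63.2 and 52.8 with iron, selenite and zinc, against 54.6 and 57.1 in untreated LSKO and 51.9 and 51.4 in WT. Its log2 fold change was -2.08 ± 0.12 (edgeR quasi-likelihood adjusted p = 1.56e-07), and the other 7 libraries lay between 51.4 and 63.2 CPM. Of its exon bases, 33.4% are overlapped by exons of Twnk, the mitochondrial DNA helicase gene, on the other strand. Mrps30 (32.5 CPM, against 72.3 and 80.5 in untreated LSKO, -1.24), Mrps34 (22.9, against 41.4 and 50.4, -1.01) and Mrps18b (-0.97) came next. Mrpl18 (-0.92), Mrpl48 (-0.81), Mrpl12 (-0.81), Mrps25 (-0.79), Mrpl47 (-0.78) and Mrps27 (-0.59) completed the list.

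All 10 lay among the 27 tested members whose exons overlap an exon on the other strand, with 8.68% to 69.8% of their exon bases overlapped. The median of those 27 was -0.41, and of the 50 members with no such overlap 0 were called and the median was 0.14. Over all genes 39.2% of those with an overlap were called lower, against 1.49% of those without. The manganese library is also the one with 72.2% of reads in genes, and whether the libraries were made and counted with strand is not given in the sources used here. A manganese effect and a difference in how reads were assigned to strands cannot be told apart for these 10 genes.

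Untreated LSKO and WT libraries differ in the read summaries given above, so genotype and that difference cannot be told apart. Between untreated LSKO and WT, 1 member (1.30%) was called higher and 0 lower, below the shares of all genes (6.74% higher and 3.70% lower). The median was 0.08. Without untreated LSKO replicate 1 the count was 2. Mrpl41, a large subunit protein reported to bind Bcl-2 in human cells, had 26.8 and 31.5 CPM in untreated LSKO, against 20.5 and 19.5 in WT, with 30.3, 25.2, 44.9 and 31.4 under manganese, iron, selenite and zinc. All 6 LSKO libraries were above both WT libraries. The log2 fold change was 0.54 ± 0.11 (adjusted p = 0.00777 by edgeR's quasi-likelihood test). The call was lost without WT replicate 1 (adjusted p = 0.0702 by edgeR), without WT replicate 2 (0.0921) and, on size, without untreated LSKO replicate 2 (0.44) and with the length and GC correction (0.50). Mrps33 had the lowest value, -0.45 ± 0.13 (edgeR adjusted p = 0.0445), short of the fold threshold. Both untreated LSKO libraries were above both WT libraries for 41 members (53.2%, against 31.8% of all genes), and below for 10 (13%, against 29.0%). The 41 split into 30 of 48 Mrpl and 11 of 29 Mrps genes. Cell type markers also differed: those of hepatocytes summed to 28200 and 35864 CPM in untreated LSKO, against 20551 and 19514 in WT. Alb alone made up 25119 and 31469 CPM of the LSKO sums. Ttr, Apoa1, Hnf4a, Tat, Cps1 and Ass1 were also above both WT libraries, but Serpina1c was not (449 and 608 CPM, against 521 and 484). Endothelial markers summed to 147 and 117, against 177 and 183, and macrophage markers, mostly Cd68, to 244 and 276, against 205 and 188. Their part in the result was not tested.

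The iron, selenite and zinc libraries together were compared with WT, which again sets LSKO beside WT but in libraries of like read summaries. Here 3 members (3.90%) were called higher and 0 lower, below the shares of all genes (7.12% higher and 6.93% lower), while the median was 0.19 and 69 of 77 were positive. Hepatocyte markers, mostly Alb, summed to 30419, 48753 and 35504 CPM with iron, selenite and zinc, against 20551 and 19514 in WT. Endothelial markers summed to 76.5, 105 and 94.5, against 177 and 183, and macrophage markers, mostly Cd68, to 319, 312 and 279, against 205 and 188. Their part in the result was not tested. Mrpl41 rose most (0.72 ± 0.10, adjusted p = 0.00078 by edgeR's quasi-likelihood test). Mrps10, the counterpart of bacterial S10, had 48.9, 62.6 and 52.8 CPM with iron, selenite and zinc, 53.8 with manganese and 44.5 and 50.9 in untreated LSKO, against 36.5 and 38 in WT. Its change was 0.55 ± 0.09 (edgeR adjusted p = 0.00143), and WT was below every LSKO library. Mrps34, in which human mutations cause Leigh syndrome, had 41.1, 52 and 55.8 CPM, against 34.5 and 34.6 in WT (0.51 ± 0.10, edgeR adjusted p = 0.00402), and 6 of the other settings put it under the fold threshold. Exons of Mapk8ip3 on the other strand overlap 63.4% of its exon bases. The 3 libraries were all above both WT libraries for 21 members (27.3%, against 18.4% of all genes). Without WT replicate 1 the count was 5, and with library totals in place of TMM factors it was 1, where the all-gene median was -0.15. Metal and genotype cannot be told apart in this comparison.

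Other genes of mitochondrial translation and transcription were taken as 6 lists of 70 genes. With selenite 1 was called higher (1.43%) and 3 lower (4.29%), against 7.89% and 9.67% of all genes. With iron 5 were called higher (7.14%) and 0 lower, against 3.80% and 4.89% of all genes. The 13 transcription genes and regulators held 2 of the 3 lower with selenite and 3 of the 5 higher with iron. Of 5 ribosomal proteins under other symbols, Chchd1, a small subunit protein, was called higher (0.53). Of 11 translation factors and 20 assembly and rRNA modification genes 0 were called with selenite, with medians of 0.12 and 0.15. Of 17 mitochondrial aminoacyl-tRNA synthetases Vars2, the valine enzyme, was called lower (-0.91), and of 13 transcription genes and regulators Polrmt, the mitochondrial RNA polymerase (-0.95), and Pprc1, a coactivator of the PGC-1 family (-0.83). With iron, Polrmt (0.54), Tfb2m, its transcription factor (0.51), the growth regulator Myc (0.63), Lars2, the leucine enzyme (0.98), and Ddx28, an assembly helicase (0.62), were called higher. The difference between these lists and the ribosomal protein genes was not tested.

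The selenite and iron values were set beside those of the 2 most like groups. Over all genes tested 7.89% were called higher with selenite and 4.89% lower with iron. Of 76 cytosolic ribosomal protein genes 37 (48.7%) were called higher with selenite (median 0.49) and 12 (15.8%) lower with iron (-0.33). Of 77 tested nuclear genes of oxidative phosphorylation, 34 (44.2%) were called higher with selenite (0.46) and 15 (19.5%) lower with iron (-0.31). The mitochondrial ribosomal protein genes had 18 (23.4%) and 3 (3.90%) calls, and the iron share was below that of all genes. Their medians, 0.36 and -0.12, had the same signs as those of the other 2 groups. No test of the difference between the groups was made.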

How the data were processed

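Total RNA of 8 hepatocyte cultures was sequenced. Per the labels and the study's methods, the authors trimmed reads with Trimmomatic, aligned them to GRCm38 with HISAT2 and counted reads per gene with HTSeq, and the deposited values are raw counts for 55450 genes in each library, with no replicate pooled. All identifiers matched GENCODE M21. HTSeq's summary lines (reads in no feature, ambiguous, unaligned) were left out of library sizes.

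Genes with at least 80 reads over 8 libraries were fitted in 1 model of 6 groups with edgeR 4.0.16 (R 4.3.3, TMM factors, quasi-likelihood test, Benjamini-Hochberg adjustment over 15468 genes). Metals with 1 library take their spread from the WT and LSKO pairs, which leave 2 residual degrees of freedom. Calls required both an adjusted p below 0.05 and more than 0.5 in size on the log2 scale, and 95% intervals use the t distribution. Replicates differed beyond sampling noise (chi-square per degree of freedom 5.98 in WT and 13.3 in LSKO). Scripts were tested on simulated data.

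Alternatives were DESeq2 1.42.0, other scalings and filters, each replicate left out, the manganese library left out, a length and GC correction (splines with 4 degrees of freedom), no fold threshold, members without opposite-strand overlap, and a replicate block. The length and GC correction used the longest transcript of each gene. Library totals, the median coding transcript length and a crossed block were added after seeing the data. Named members were, per comparison, the called ones with the largest change and at least 100 mean reads (up to 12 in each direction with selenite, 8 in the comparisons without untreated LSKO and 6 elsewhere), the 5 highest and 5 lowest per kb, and members of known role. The members and lists were chosen with earlier results of these data known.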

Additional observations from a re-analysis of the deposited data

How the results depend on the processing

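In most settings the called members of a comparison moved one way, as in the report. The exceptions were untreated LSKO against WT, with 0 higher and 1 lower call without WT replicate 2 and with the length and GC correction, so that Mrpl41 was not called there, and manganese, with 1 higher call without LSKO replicate 2 and 5 with that correction. With no fold threshold manganese and iron had 3 higher calls each, and untreated LSKO against WT 1 lower call. In that setting, the totals of both directions were 18 (manganese), 10 (iron), 42 (selenite), 8 (untreated LSKO against WT), 40 (selenite against iron and zinc) and 31 (iron, selenite and zinc against WT), where 20.4%, 12.4%, 26.7%, 14.8%, 24.0% and 27.0% of all genes passed in these comparisons. Library totals in place of TMM factors gave 6 for iron, 3 for selenite, 1 for zinc, 6 for selenite against iron and zinc and 1 for iron, selenite and zinc against WT. The matching all-gene shares were 5.34% lower for iron and 3.91%, 2.52%, 3.58% and 5.30% higher for the others, in that order. The length and GC correction gave 3 for selenite, 1 for zinc and 6 for selenite against iron and zinc. All-gene shares after that correction are not given here. Among members with no overlap on the other strand, manganese had 0 calls and zinc 1. Leaving out 1 replicate gave 2 to 5 calls for iron, 12 to 19 for selenite, 2 to 5 for zinc, 0 to 2 for untreated LSKO against WT, 15 in each case for selenite against iron and zinc, 2 to 5 for iron, selenite and zinc against WT and 10 to 13 for manganese. Of 382 results for single named members, 334 kept their call and 48 lost it, 18 of these with the correction and 14 with library totals, and 0 reversed. Median levels were 43.0 CPM per kb with the coding transcript length, against 19.7.

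Replicate numbers are shared by WT and LSKO, but the deviations of same-numbered libraries had r = -0.12 over 10882 genes, so the numbers were not taken as pairs. With the replicate block 1 member was called for untreated LSKO against WT, the same count as without it or with crossed numbers. Tested members had at least 212 reads in each library. The limits are the single library of each metal and the 2 residual degrees of freedom.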
